A study of Rattus norvegicus with 6 samples.

Results

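The 10 genes described here are transcriptional targets of p53: Mdm2, Cdkn1a, Ccng1, Bax, Gadd45a, Sesn1, Phlda3, Tp53inp1, Btg2 and Bbc3. They were chosen as a gene list by name, and every non-control array probe whose RefSeq accession belongs to one of them was used. This gave 15 probes of 9 genes, out of 61537 non-control probes and 15639 named genes on the array. No probe was matched to Sesn1, which was not analysed here. All 15 probes passed the filter on dim probes, which asked that 1 group or both be well above background on all 3 arrays.

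The samples were pieces of renal cortex from 6 male Sprague-Dawley rats, bought at 5 weeks of age. The 3 control animals received corn oil for 4 weeks. The 3 treated animals received 4-hydroxy-m-phenylenediammonium dichloride at 100 mg/kg/day for 4 weeks, a salt of 2,4-diaminophenol, and the sources used here do not give the vehicle of this group. The comparison asked which transcripts of the cortex differ under the compound.

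p53 is a transcription factor that accumulates when DNA is damaged or replication is stressed. It switches on genes that halt the cell cycle, aid repair or promote apoptosis, and it also switches on Mdm2, whose product marks p53 for degradation and closes a feedback loop. In the kidney, p53 and its targets respond to nephrotoxic drugs and to ischaemia, mostly in the proximal tubule that makes up the bulk of the cortex.

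In these animals the targets did not move together. Of the 15 probes, 1 probe of Mdm2 rose and none fell (limma, adjusted p under 0.05 over all 40988 probes kept). Over all kept probes, 4.97% were called higher and 1.74% lower by the same rule, 6.72% in all. Treated values lay above all control values at 2 of the 15 probes and below them at 1, against 16.6% of all kept probes for each direction and 33.3% for both. At an unadjusted p under 0.05, the members gave 2 probes upward and 2 downward, against 13.9% and 11.7% of all kept probes and 25.5% for both. The median log2 fold change of the 15 probes was 0.035 (range -0.41 to 0.46) and that of all kept probes was -0.012. The members' shares were near the background of this comparison.

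Every level is the log2 of a probe's signal after division by its array's 75th percentile, and levels of different probes cannot be set against each other. The groups were hybridised on separate slides, 1 for the controls and 1 for the treated animals, and scanned apart, so a slide effect and a treatment effect cannot be told apart. Between 63.1% and 69.6% of probes were well above background on each array, and correlations between arrays ran from 0.985 to 0.993 (across kept probes, which are not independent replicates). The 10 spike-in control probes differed by -0.29 to -0.071 (treated minus control, log2, median -0.15) after the same scaling. Several differences of the members given below were smaller than that median in size, so their sign can depend on the reference chosen. Scaling to the spike-ins was not tested. All 6 proximal tubule markers were well above background on all arrays, and 1 of them, Aqp1, was called lower. All 6 had a lower treated mean, and the mean of the 6 ranged from 7.131 to 7.275 in controls and from 7.009 to 7.051 in treated animals. Aqp1 differed most (log2 fold change -0.58), the median over the 6 was -0.111, and groups did not overlap at 2 of the 6. Of all named genes, 43.6% had a higher treated mean. The mean of 6 red cell markers ranged from -1.60 to -1.37 in controls and from -0.82 to 0.39 in treated animals. At the brightest probe 1 of the 6, Gata1, was called higher and 5 were not called, and a second probe of Epb42 was also called. Neither of these called probes was well above background on any of the 3 control arrays. The mean of 8 leukocyte markers ranged from -0.87 to -0.78 in controls and from -0.77 to -0.48 in treated animals, with 0 called by limma (unadjusted p under 0.05 for 1 upward and 2 downward). The 1 upward was Cd52, with a log2 fold change of 2.415. The median over the 8 was -0.053, with 4 means higher and 4 lower, so the list did not rise as a whole. The mean of 8 proliferation markers ranged from -1.28 to -1.07 and from -1.07 to -0.94, with all 8 means higher in treated cortex and 1, Cdc20, called higher. In such bulk RNA, more cells of a type and more RNA per cell cannot be told apart, and the part of these shifts in the members' values was not tested.

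The start regions of Mdm2, Cdkn1a and Gadd45a are printed first, because these are the members whose brightest probe separated the groups completely. Each is the 250 bases before 1 RefSeq transcript start in build GRCr8, read 5′ to 3′. That start is the outermost one for Gadd45a, but lies 966 bases inside the annotated gene for Mdm2 and 112 bases inside it for Cdkn1a. Capitals mark a match to the p53 half-site consensus.
Mdm2 (chr7:55200792-55201041, minus strand): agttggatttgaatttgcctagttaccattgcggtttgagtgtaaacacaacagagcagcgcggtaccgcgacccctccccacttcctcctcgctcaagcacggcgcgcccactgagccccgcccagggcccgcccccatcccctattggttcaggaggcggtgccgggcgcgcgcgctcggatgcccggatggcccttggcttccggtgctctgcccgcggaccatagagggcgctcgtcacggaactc
Cdkn1a (chr20:7150682-7150931, plus strand): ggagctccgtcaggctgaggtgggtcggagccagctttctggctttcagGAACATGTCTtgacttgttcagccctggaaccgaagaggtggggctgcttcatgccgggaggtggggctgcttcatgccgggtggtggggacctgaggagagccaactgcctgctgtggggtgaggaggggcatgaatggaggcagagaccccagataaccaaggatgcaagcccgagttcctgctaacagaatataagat
Gadd45a (chr4:97486800-97487049, minus strand): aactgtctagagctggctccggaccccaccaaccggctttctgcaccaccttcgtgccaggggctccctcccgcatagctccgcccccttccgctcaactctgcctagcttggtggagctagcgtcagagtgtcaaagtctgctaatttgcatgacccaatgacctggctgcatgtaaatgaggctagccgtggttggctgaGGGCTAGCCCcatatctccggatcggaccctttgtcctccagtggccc

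The p53 half-site is a 10-base palindromic consensus, of which p53 binds a pair as a tetramer. It was searched by exact match on both strands of RefSeq windows of 300 bases, from 250 before to 50 after a transcript start, with 1 window for each member found. A window was found for 7 of the 10 members, and 4 of those windows held a half-site, against 7.98% of all 33469 windows. The Cdkn1a half-site, GAACATGTCT, begins 201 bases before the start, and that of Gadd45a, GGGCTAGCCC, begins 48 bases before it. Ccng1 held GGGCAAGCCT and Sesn1 held AAGCTTGTTT, at 232 and 172 bases before the start used. That start is the outermost one for Ccng1 but lies 71801 bases inside the annotated gene for Sesn1. No member window held 2 half-sites within 13 bases of each other, an arrangement found in 20 windows of all genes. The windows of Mdm2, Phlda3 and Btg2 held no match, which covers these starts only. A match is a string of letters and was not measured as a binding site here.

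Feedback on p53 was represented by Mdm2, which encodes the ubiquitin ligase that degrades p53 and was measured by a pair of probes. Probe A_44_P634946 read 0.59, 0.63 and 0.86 in the control animals and 1.15, 1.16 and 1.14 in the treated animals. The treated values were nearly identical to each other and lay above every control value. The level rose from 0.69 ± 0.15 to 1.15 ± 0.01 (SD, n = 3 each), which is 1.38-fold (0.46 on the log2 scale, SE 0.087, 95% interval 0.25 to 0.68, limma adjusted p = 0.0382).

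The other Mdm2 probe, A_43_P16885, showed no such separation. It read -1.06, -1.12 and -1.04 in controls and -1.11, -1.11 and -1.08 in treated animals, and all 3 treated values lay within the control range. Its log2 fold change was -0.025 (SE 0.056, 95% interval -0.16 to 0.11, limma adjusted p = 0.818). The gap between the probes on the same array was 1.76 ± 0.13 in controls and 2.25 ± 0.03 in treated animals (n = 3 each). That change of 0.49 gave p = 0.1 in a two-sided exact permutation test, the smallest p that 3 against 3 can give, and 0.175 after adjustment over the 7 probe pairs of the members. The probe pairs of Ccng1, Bax and Btg2 gave the same p-values in that test, with changes of -0.10, -0.066 and 0.19. The test therefore cannot set the Mdm2 pair apart from those. Both Mdm2 probes carry the same RefSeq accession, and their sequences were not used here. The Mdm2 call was lost without control animal 1 (adjusted p = 0.0964), control animal 2 (0.111), treated animal 1 (0.108), treated animal 2 (0.117) or treated animal 3 (0.106), and it held without control animal 3 (0.0292). It was also lost with no filter (0.0995), with the mean of its probes (0.128) and with the replicate block (0.118).

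**Figure D1:**
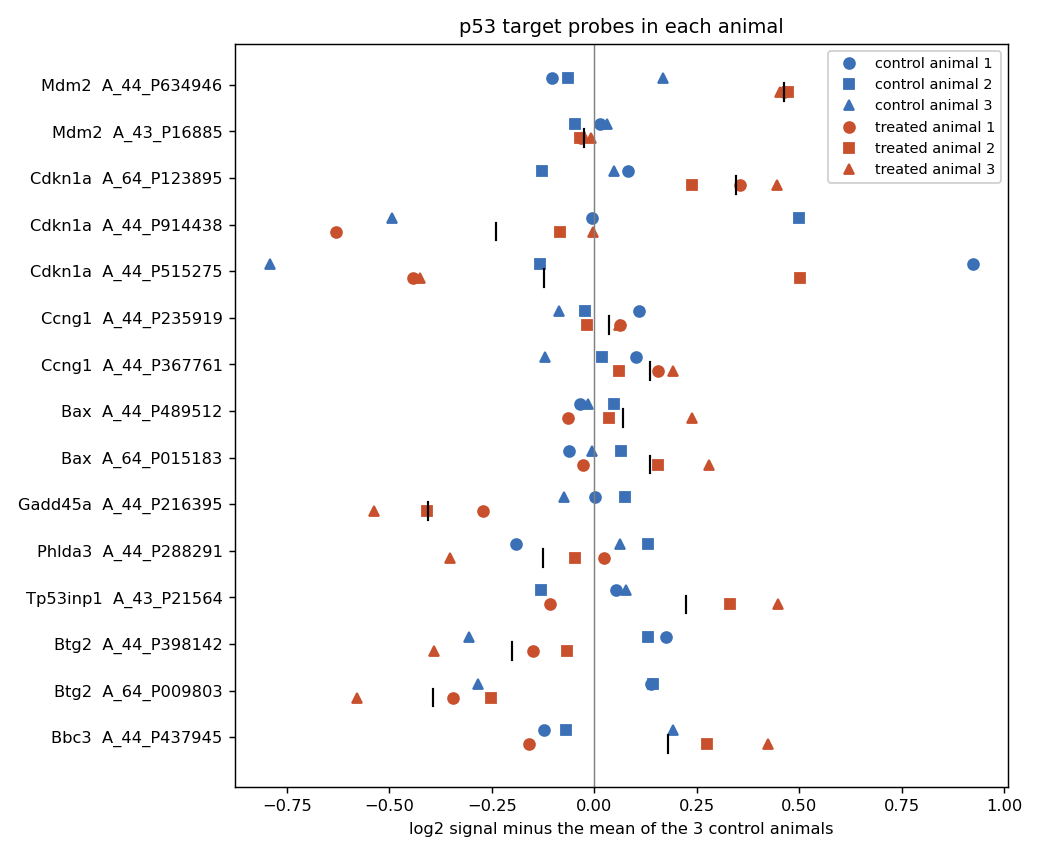
Log2 signal of each of the 15 p53 target probes in each animal, minus the mean of the 3 control animals; blue symbols are control animals, orange symbols are treated animals, and black ticks are treated means. Only the brightest probes of Mdm2 and Cdkn1a have all treated animals to the right of all controls, and only Gadd45a has all of them to the left.

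Cell cycle arrest was represented by Cdkn1a, Ccng1, Gadd45a and Btg2. Cdkn1a encodes p21, the inhibitor of cyclin-dependent kinases through which p53 stops cells before DNA replication. Its brightest probe, A_64_P123895, read 4.93, 4.72 and 4.90 in controls and 5.21, 5.09 and 5.29 in treated animals. Every treated animal was above every control. The means were 4.85 ± 0.11 and 5.19 ± 0.10 (SD, n = 3 each), 1.27-fold apart (log2 fold change 0.35, SE 0.090, 95% interval 0.13 to 0.57), and the difference did not pass (limma adjusted p = 0.0787). It passed with a normexp background (0.0319) and when the variance prior followed intensity (0.0388).

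The remaining Cdkn1a probes were noisier. Probe A_44_P914438 read 0.80, 1.30 and 0.31 in controls and 0.17, 0.72 and 0.80 in treated animals, and differed by -0.24 (log2, SE 0.29, adjusted p = 0.651). Probe A_44_P515275 was dim, with 2 of 3 control arrays and 3 of 3 treated arrays well above background, and differed by -0.12 (log2, SE 0.49, adjusted p = 0.904). The groups overlapped widely at both. Their 95% intervals, -0.96 to 0.48 and -1.33 to 1.08, hold the estimate of the brightest probe. Averaged over its 3 probes, the gene had a log2 fold change of -0.005 (adjusted p = 0.991).

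Gadd45a, a stress sensor that binds p21, PCNA and kinases of the p38 pathway, had the lowest fold change of the members. Its 1 probe read 3.29, 3.36 and 3.21 in controls and 3.02, 2.88 and 2.75 in treated animals. All treated animals lay below all controls. The means were 3.29 ± 0.08 and 2.88 ± 0.13 (SD, n = 3 each), and the difference of -0.41 (SE 0.089, 95% interval -0.63 to -0.19) fell just short of the threshold (limma adjusted p = 0.0555). It passed with the stricter filter (0.0483) and with the intensity trend (0.0262), and was -0.24 with a normexp background (0.174). This direction is opposite to that of the brightest Mdm2 and Cdkn1a probes in the same animals.

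Btg2, an antiproliferative partner of the mRNA deadenylase complex, had lower treated means at both probes. Probe A_64_P009803 read 0.50, 0.51 and 0.078 in controls and 0.015, 0.11 and -0.22 in treated animals. The groups overlapped only through control animal 3, which was lower than the other controls at both probes. The log2 fold changes were -0.39 (SE 0.15, adjusted p = 0.177) and, at A_44_P398142, -0.20 (SE 0.16, adjusted p = 0.475). Ccng1, which encodes cyclin G1, a regulator of MDM2 through protein phosphatase 2A, differed little. Its probe A_44_P235919 read 2.13, 2.00 and 1.93 in controls and 2.08, 2.00 and 2.08 in treated animals, with a log2 fold change of 0.035 (SE 0.074, 95% interval -0.15 to 0.22). The other probe, A_44_P367761, gave 0.14 (SE 0.081, 95% interval -0.064 to 0.34). Neither passed.

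**Figure D2:**
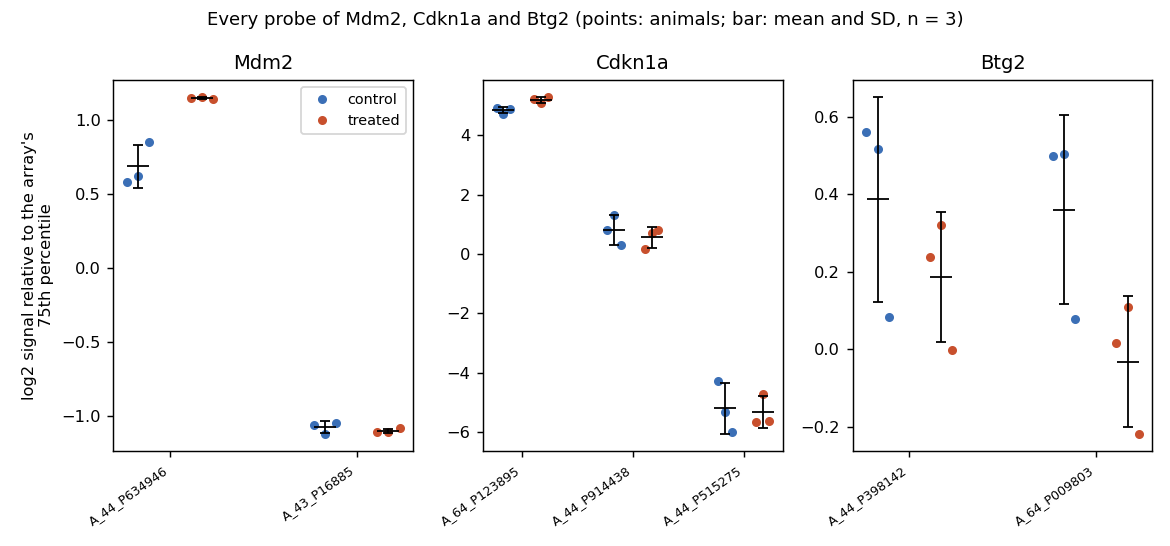
Log2 signal, scaled by each array's 75th percentile, for every probe of Mdm2, Cdkn1a and Btg2; points are animals, horizontal bars are means and whiskers are SD (n = 3). The treated mean is higher at the brightest Mdm2 and Cdkn1a probes (by 0.46 and 0.35), lower at their dimmer probes (by -0.24 to -0.025) and lower at both Btg2 probes (by -0.20 and -0.39).

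**Figure D3:**
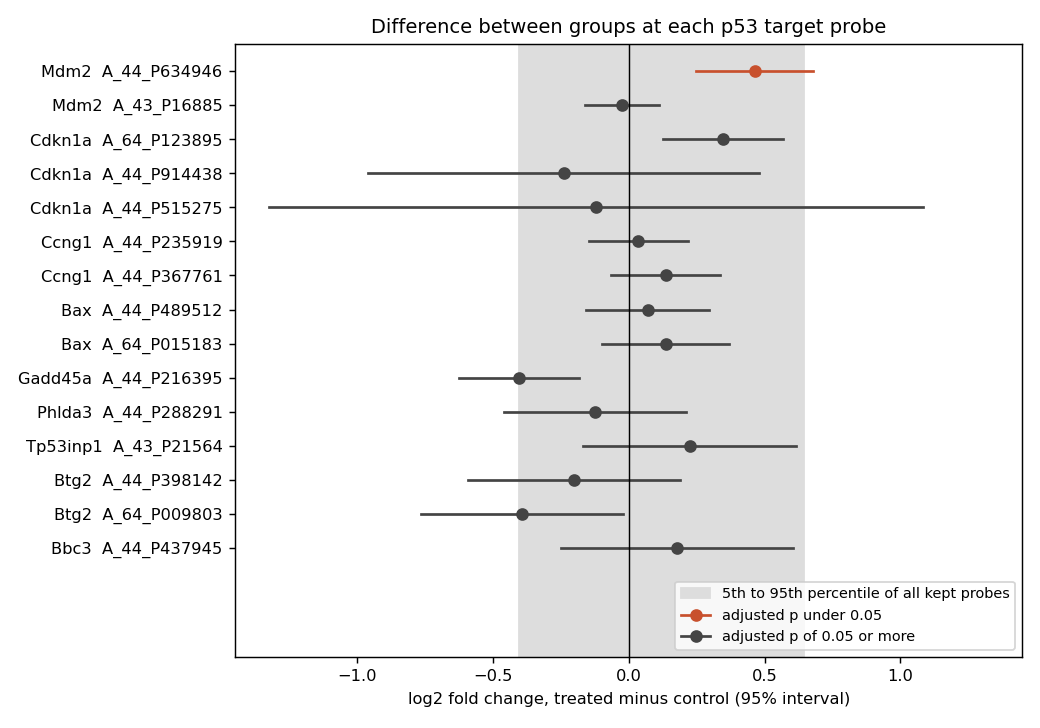
Log2 fold change of each of the 15 probes, treated minus control, with its 95% interval from limma; the grey band spans the 5th to 95th percentile of all 40988 kept probes (-0.40 to 0.65). The brightest Mdm2 probe, in orange, is the only probe of the 15 with an adjusted p under 0.05, and all points but Gadd45a at -0.41 lie inside the band.

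Apoptosis was represented by Bax, Bbc3, Phlda3 and Tp53inp1. Bax, the pore-forming protein of the outer mitochondrial membrane, read 3.10, 3.19 and 3.12 in controls and 3.07, 3.17 and 3.38 in treated animals at probe A_44_P489512. Only treated animal 3 exceeded the controls there. The log2 fold changes were 0.070 (SE 0.092, 95% interval -0.16 to 0.30) and, at A_64_P015183, 0.14 (SE 0.095, 95% interval -0.098 to 0.37). Neither passed.

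Bbc3 encodes PUMA, a BH3-only protein that unleashes Bax. It read -0.28, -0.22 and 0.040 in controls and -0.31, 0.12 and 0.27 in treated animals, a difference of 0.18 (log2, SE 0.17, adjusted p = 0.565). Treated animal 1 was the lowest of all 6 animals, while treated animals 2 and 3 were above every control. Tp53inp1, a stress protein that acts with p53 and in autophagy, read -0.997, -1.18 and -0.97 in controls and -1.16, -0.72 and -0.60 in treated animals, a difference of 0.22 (log2, SE 0.16, adjusted p = 0.432). Its treated animal 1 lay inside the control range and the others above it.

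Treated animal 1 also had the lowest treated value at both Bax probes and at the mean of the red cell markers, which lay 0.67, 1.69 and 1.88 above the control mean in treated animals 1, 2 and 3. Without it, the log2 fold change was 0.39 for Tp53inp1 (limma adjusted p = 0.121), 0.35 for Bbc3 (0.209) and 0.22 for the second Bax probe (0.219). In that fit 5 member probes had an unadjusted p under 0.05 upward, against 12.4% of all kept probes. Leaving out any other single animal gave 2, the same as with no animal left out. Treated animal 1 was singled out by its low values at these same genes, so the count of 5 cannot serve as a test of the members. None of the 15 was called in the fit without treated animal 1, in which 973 of all kept probes were called higher and 94 lower. Whether the red cell shift has a part in these values was not tested. Phlda3, an inhibitor of AKT that competes for membrane lipids, read -3.24, -2.91 and -2.98 in controls and -3.02, -3.09 and -3.40 in treated animals, and its log2 fold change of -0.13 (SE 0.14, adjusted p = 0.608) was within the spread of the animals.

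The rest of the p53 pathway was taken from lists of regulators, other targets and relatives of the members. Of 58 genes tested by their brightest kept probe, 1 was called higher and none lower, and the median log2 fold change was 0.030. Among all 12124 named genes tested, 3.59% were called higher and 1.68% lower, 5.27% in all, with a median of -0.030. An unadjusted p under 0.05 was found for 6 of the 58 upward and 10 downward, against 11.5% and 12.5% of all named genes and 24.1% for both. The called gene, Rchy1, belonged to the list of regulators of p53, in which 10 genes were tested and 9 did not pass. In that list an unadjusted p under 0.05 was found for 1 gene upward and 3 downward. Groups did not overlap for 2 upward and 3 downward, against 14.1% and 18.7% of all named genes. The 3 downward by p, named after their values were seen, were Cop1, Hipk2 and Usp7 (log2 fold changes -0.265, -0.263 and -0.156). The regulators thus did not move in 1 direction.

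Rchy1 encodes Pirh2, another ubiquitin ligase of p53 and itself a p53 target. It read -0.52, -0.34 and -0.28 in controls and 0.25, 0.50 and 0.45 in treated animals and rose 1.71-fold (log2 fold change 0.78, SE 0.10, limma adjusted p = 0.0140). Every treated animal was above every control by more than the spread within either group. Its call was lost without treated animal 2 (adjusted p = 0.0576) and without treated animal 3 (0.0623), and each of those fits called 0 of the 58 genes by limma. Mdm4, the partner of Mdm2 that masks the activation domain of p53, differed by -0.049 (log2, SE 0.092, adjusted p = 0.781).

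Other p53 targets did not pass in any of the 3 lists tested. Among 7 targets of growth arrest and secretion, 6 means were higher, 3 genes had no overlap in that direction and 1 in the other, and limma called 0 (unadjusted p under 0.05 for 3 upward and 1 downward). Across all named genes 14.1% had no overlap upward and 18.7% downward, 32.8% in all, and 43.6% had a higher treated mean. Gdf15, a secreted stress cytokine, read -0.54, -0.61 and -0.45 in controls and -0.20, 0.58 and -0.014 in treated animals (log2 fold change 0.65, SE 0.20, adjusted p = 0.118). Its other probe gave 0.70 (adjusted p = 0.108). Ckap2, a spindle protein of dividing cells, differed by 0.24 (log2, SE 0.080, adjusted p = 0.138).

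Among 9 targets of cell death, limma called 0 and none had an unadjusted p under 0.05, with log2 fold changes from -0.097 to 0.20. The smallest p belonged to Pidd1, a scaffold of the PIDDosome (0.20, SE 0.11, adjusted p = 0.311), and Perp, a desmosomal membrane protein (-0.097, SE 0.057, adjusted p = 0.348). Among 12 targets of DNA repair and metabolism limma called 0, 8 means were lower and 2 of them had an unadjusted p under 0.05. A higher treated mean was found for 43.6% of all named genes, so lower means were the more common. Tigar, a fructose bisphosphatase that restrains glycolysis, differed by -0.33 (log2, SE 0.074, adjusted p = 0.0598), with -0.086 at its other probe. Tsc2, a subunit of the complex that restrains mTORC1, differed by -0.20 (log2, SE 0.069, adjusted p = 0.143). Groups did not overlap at the brightest probe of either gene.

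The 22 relatives of the members gave 0 calls at the brightest probe, with an unadjusted p under 0.05 for 2 upward and 4 downward and a median log2 fold change of -0.008. Tp53inp2, the relative of Tp53inp1 that works in autophagy, was closest, at 0.40 (log2, SE 0.088, adjusted p = 0.0558). Its dim second probe was well above background on 2 of 3 control arrays and on 3 of 3 treated arrays. It passed the filter only through the treated group, and was called higher at 0.69 (SE 0.11, limma adjusted p = 0.0232). That call therefore gives no support to the first probe. Phlda1, a relative of Phlda3, differed by 0.52 (log2, SE 0.16, adjusted p = 0.110), while the Phlda3 mean was lower.

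The remaining relatives gave no call. Sesn2 and Sesn3, the sestrins that hold back mTORC1, had log2 fold changes of -0.22 (SE 0.17) and 0.20 (SE 0.12), with 0.001 (SE 0.093) at the second Sesn3 probe. They are the members of that family that were measured, since no probe was matched to Sesn1. Gadd45b and Gadd45g had log2 fold changes of -0.23 (SE 0.18) and 0.20 (SE 0.61), the latter with an SD of 0.91 in controls. Btg1, a relative of Btg2, had one of -0.33 (SE 0.10, adjusted p = 0.111), in the same direction as Btg2 and with no overlap between groups. Ccng2 and Cdkn1b, relatives of Ccng1 and Cdkn1a, had log2 fold changes of 0.023 (SE 0.11) and 0.047 (SE 0.20), each with the other sign at a second probe.

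**Figure D4:**
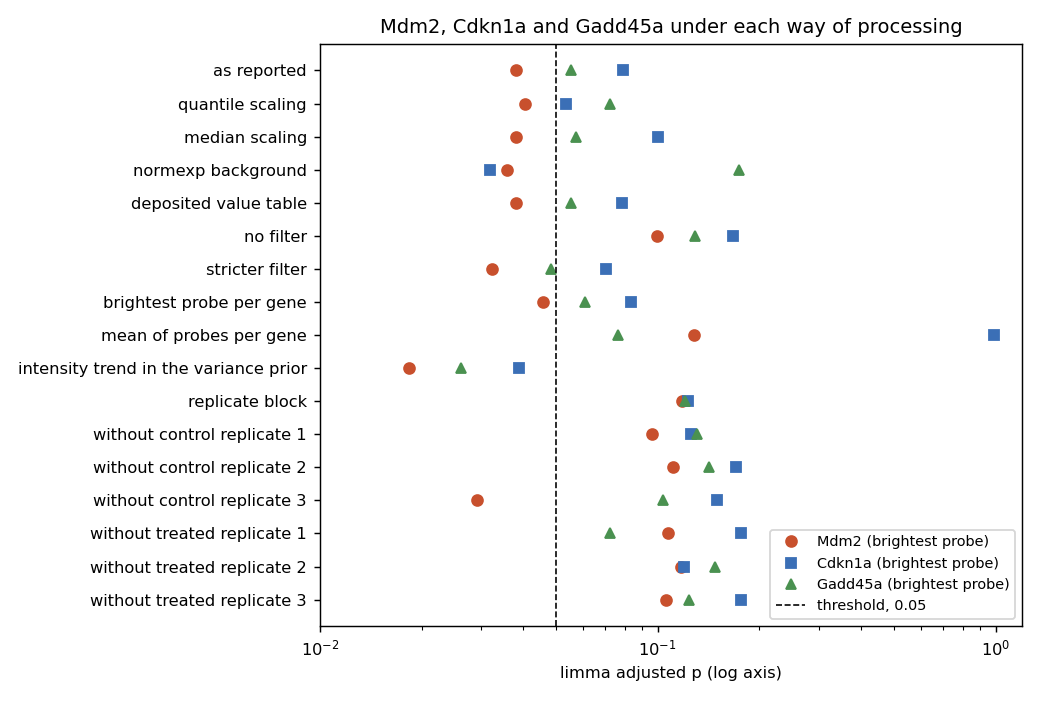
Limma adjusted p (log axis) of the brightest probes of Mdm2, Cdkn1a and Gadd45a as reported and under each of 16 alternatives. With the mean of probes per gene, the points are for the mean over each gene's probes. The dashed line is the threshold of 0.05. Mdm2 lies left of the line as reported, at 0.0382, and right of it in 5 of the 6 fits that leave out 1 animal; Cdkn1a and Gadd45a lie right of it as reported and in all 6 such fits.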

How the data were processed

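Cy3-labelled RNA of 6 rats was hybridised to 1-colour Agilent arrays, 1 per animal. Per the file headers, the spot intensity came from Feature Extraction 10.7.1.1 (10.7 in the submitters' processing notes), on a design tied to rn4. In the deposited value table each entry is a linear ratio of the signal to the 75th percentile of its array, found by comparing it with the scanner values (median ratio 0.998).

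Here log2 of the processed signal was taken minus the 75th percentile over 61537 non-control probes. Outlier spots, 1 to 3 per array, were missing, and 0 spots were saturated. Accessions were named through a RefSeq table of GRCr8 (28193 probes). Probes well above background on all 3 arrays of 1 group or both were fitted with limma 3.58.1 in R 4.3.3 (lmFit, eBayes, prior degrees of freedom 1.85), two-sided, with Benjamini-Hochberg adjustment over all 40988 probes. The fit was tested on simulated data.

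The members, lists, naming rule and alternatives were chosen with earlier results of these data known. Some genes of the pathway lists are not reported here. The rule names all members, called genes of each list (or the 2 with the smallest p), and Mdm4, Ccng2, Sesn2, Sesn3, Gadd45b, Gadd45g, Btg1 and Cdkn1b. Alternatives were other scaling, background, filters, probe summaries, variance prior, the deposited table, a replicate block and leaving out each array. A slide block could not be fitted, because each slide held 1 group. Normexp (offset 50) used median spot and background signals, since no mean signal column was found.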

Additional observations from a re-analysis of the deposited data

How the results depend on the processing

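The probe-wide counts, 2039 higher and 715 lower, were 942 and 120 with no filter, 370 and 161 with the brightest probe per gene, 229 and 63 with the mean of probes per gene (both over fewer features tested), and 413 and 25 with the replicate block. Lower calls numbered 1717 with a normexp background and 1643 with the intensity trend, where the cause was not tested. Leaving out 1 array gave 750 to 1326 higher and 90 to 152 lower, with fewer samples in each fit. Member probes called higher numbered 2 with normexp and with the intensity trend, 0 with no filter, the mean of probes or the block, and 0 to 1 without 1 array. Those called lower numbered 1 with the stricter filter and with the intensity trend, and 0 in every fit without 1 array. The stricter filter tested 14 member probes, and the mean of probes tested 9 member genes. The other pathway genes numbered 58, but 55 with the stricter filter and 60 with no filter. They gave 2 higher calls with normexp, the stricter filter, the mean of probes and the intensity trend, and 0 to 1 without 1 array. Lower calls among them numbered 4 with normexp and 3 with the intensity trend.

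Replicate numbers did not pair the animals: deviations of same-numbered animals correlated at -0.062, -0.015 and 0.096. Some signs turned. With normexp the second Mdm2 probe gave 0.044, the dim Cdkn1a probe 0.17 and Ccng2 -0.056. Ccng2 was -0.011 with median scaling and -0.034 with the mean of probes, where Cdkn1a was -0.005 (0.35 at its brightest probe, whose groups did not overlap). Without 1 array, values turned for the brightest probes of Bax (-0.014 to 0.137), Ccng1 (-0.009 to 0.09), Ccng2 (-0.085 to 0.081), Cdkn1b (-0.125 to 0.225), Gadd45g (-0.277 to 0.706) and Mdm4 (-0.101 to 0.036) and for the dimmer Cdkn1a probes (-0.52 to 0.34 and -0.49 to 0.01). The 3 arrays per group limit the precision of every value.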

Other observations

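Several relatives of the members with more than 1 kept probe had treated means on the same side at every probe, and those given here were named after their values were seen. Bok, a BAX-like effector of apoptosis, had log2 fold changes of -0.40, -0.25 and -0.24 at its 3 probes, with no overlap between groups at any of them. Bad, a BH3-only protein, had -0.21 and -0.25 at its paired probes, again with no overlap. Cdkn1c, the p57 inhibitor of cyclin-dependent kinases that marks podocytes, had 5 probes with log2 fold changes from -0.45 to -0.23. At most of these 5 the groups overlapped. None of these 10 probes passed limma's threshold (adjusted p from 0.118 to 0.464), and 16.6% of all kept probes had no overlap downward. Bcl2, the antiapoptotic relative of Bax, had -0.12 and -0.18, with overlap at both. The mean of 4 podocyte markers ranged from 2.13 to 2.33 in controls and from 1.96 to 2.08 in treated animals, with 0 called by limma and 1 lower at an unadjusted p under 0.05, and its part in the Cdkn1c values was not tested.

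In the other direction, Phlda2, a relative of Phlda3, had log2 fold changes of 0.32, 0.42 and 0.32 at its 3 probes, with no overlap at 2 of them, and none was called. Both probes of Phlda1 and of Tp53inp2 had higher treated means with no overlap. The second Tp53inp2 probe passed the filter only through the treated group, so it gives no support to the first. The means of both probes of Mcl1 (0.037 and 0.30), Gadd45g (0.20 and 0.29) and Sesn3 (0.20 and 0.001) were also higher, with overlap at 1 or both. The Mcl1 value of 0.037 and the Sesn3 value of 0.001 were smaller than their SE (0.084 and 0.093), as were both of Gadd45g (SE 0.61 and 0.60). Ckap2, from the growth arrest list, had 3 of 3 probes with higher treated means and no overlap (log2 fold changes 0.24, 0.24 and 0.28, limma adjusted p from 0.138 to 0.252). Of all kept probes, 16.6% had no overlap upward. The shares of 16.6%, upward and downward, count single probes. Probes of 1 gene read the same animals, and the share of genes with every probe on 1 side was not computed. Plk2, a stress-induced kinase, had a log2 fold change of -0.56 (SE 0.19, limma adjusted p = 0.142), and Plk3, of the same family, one of 0.75 (SE 0.53, adjusted p = 0.428).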
